A study of Drosophila melanogaster with 4 samples.

Results

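The genes described here are 10 components of Wnt signaling in Drosophila melanogaster, taken by symbol from the 16489 gene symbols of the count tables. They are the ligand genes wg, Wnt2, Wnt4, Wnt5, Wnt6 and Wnt10, the receptor genes fz2 and fz3, and the feedback genes nkd and Notum. RNA was measured in adult heads in which GMR-Gal4 drove yki S168A (2 libraries) and in adult heads with GMR-Gal4 alone (control, 2 libraries), at 30 heads per library. GMR-Gal4 is an eye driver, active in the photoreceptors and the other cells of the developing retina, and both groups carried it. yki S168A is a form of the transcriptional co-activator Yorkie that lacks a serine through which the Hippo pathway restrains it, and the labels describe these heads as tumor tissue. The labels give neither age nor sex. They also do not say whether the 2 libraries of a group stem from separate crosses or cultures, and the p-values therefore measure a spread between samples that may be only technical.

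Wnt proteins are secreted, lipid-modified signals. In the canonical branch, a ligand such as Wingless, the product of wg, binds a Frizzled receptor together with the co-receptor Arrow, the complex that destroys Armadillo (the fly beta-catenin) is held back, and Armadillo joins the DNA-binding factor Pangolin on target genes. Several targets feed back on the signal: Naked cuticle, the nkd product, acts on Dishevelled inside the cell, and the secreted enzyme Notum removes the lipid that Wnt proteins need for receptor binding. In the developing eye, Wingless made at the disc margin opposes the start of retinal differentiation, and in the pupa it acts at the rim of the retina. In the wing disc, wg is also among the genes reported to respond to Yorkie.

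Levels are given as CPM, the counts scaled to a common library total after correction by the trimmed mean of M values (TMM). Library totals were 17311383 and 18108814 counts for yki S168A and 16817968 and 15738860 for control. At these totals, before the TMM correction, 3 counts correspond to 0.166 to 0.191 CPM. The yki gene itself was at 32.2 and 27.2 CPM in yki S168A heads, against 12.4 and 18.4 CPM in control heads (log2 fold change 0.95 ± 0.23, SE, edgeR adjusted p = 0.0112). With control replicate 1 left out the value was 0.69 and the call was lost (adjusted p = 0.138), and gene counts do not separate transgene from resident reads. Of 17 photoreceptor markers 15 were lower and 0 higher, by edgeR as below, with a summed level of 4563 to 4993 CPM in yki S168A heads, against 14145 to 14270 CPM in control heads. Markers of cone and pigment cells (5 lower and 2 higher of 8 tested), neurons (7 and 0 of 10) and the fat body (6 and 1 of 10) were also mostly lower, whereas 1 of 8 glial markers was higher and 0 lower. Of 8 muscle markers tested, 0 were called, and of 7 hemocyte markers 1 was higher and 2 lower. For comparison, 15.1% of all genes tested were called higher and 12.5% lower. The 1 call among 8 glial markers is near that share, and the hemocyte list is short. The most abundant marker had a log2 fold change of −1.88 for photoreceptors (Arr2), −7.68 for cone and pigment cells (retinin) and −1.79 for the fat body (Yp2). The value was −0.14 for neurons (Syx1A), −0.29 for glia (Eaat1), 0.22 for muscle (Mlc2) and 0.27 for hemocytes (crq). Syx1A, Eaat1, Mlc2 and crq were not called. The median over the tested markers was −0.62 for neurons, −0.02 for glia, −0.10 for muscle and −0.61 for hemocytes. The call of Yp2 was lost without either control library (adjusted p = 0.0733 and 0.12). The fat body list includes the yolk protein genes Yp1, Yp2 and Yp3, which females express most. The labels give no sex, so the part of sex in these values was not tested. In RNA of whole heads, fewer cells of a type and less RNA per cell cannot be told apart. The part of these cell type shifts in the Wnt results was not tested.

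In heads with yki S168A, Wnt6 rose 6.49-fold and wg 3.47-fold, and the receptor gene fz3 and the feedback gene nkd rose 1.77-fold and 1.59-fold. The other ligand genes tested, Wnt4, Wnt5 and Wnt10, the receptor gene fz2 and the feedback gene Notum were not called. Of the 10 genes 9 passed the filter on low counts and were tested, and Wnt2, with few counts in any library, was not. By edgeR's quasi-likelihood test at a Benjamini-Hochberg adjusted p below 0.05, 4 of the 9 were called, 4 higher and 0 lower, against a background of 27.6% of all 10896 genes tested (15.1% higher and 12.5% lower). At an unadjusted p below 0.05, 5 were higher and 0 lower, against 2161 higher and 1994 lower of all 10896 genes tested. Limma-voom called 4 higher and 0 lower, against 1590 and 1328 of all genes. DESeq2, which tested all 10, called 3 higher and 1 lower, Wnt2 being the lower one. Over the 13839 genes that DESeq2 tested, it called 1419 higher and 1241 lower. The libraries of the groups did not overlap for 6 of the 9, which is near the 63.3% of all genes tested. The median log2 fold change was 0.67 over the 9 genes and 0.01 over all genes tested. The count of 4 became 2 without control replicate 1 and 2 without control replicate 2, the calls of wg and Wnt6 remaining in both. The split of all calls, 1647 higher and 1359 lower, depended on scaling: it was 1276 and 1924 with upper-quartile factors, under which the median over all genes moved to −0.15, and 1356 and 1678 with library totals alone.

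**Figure D1:**
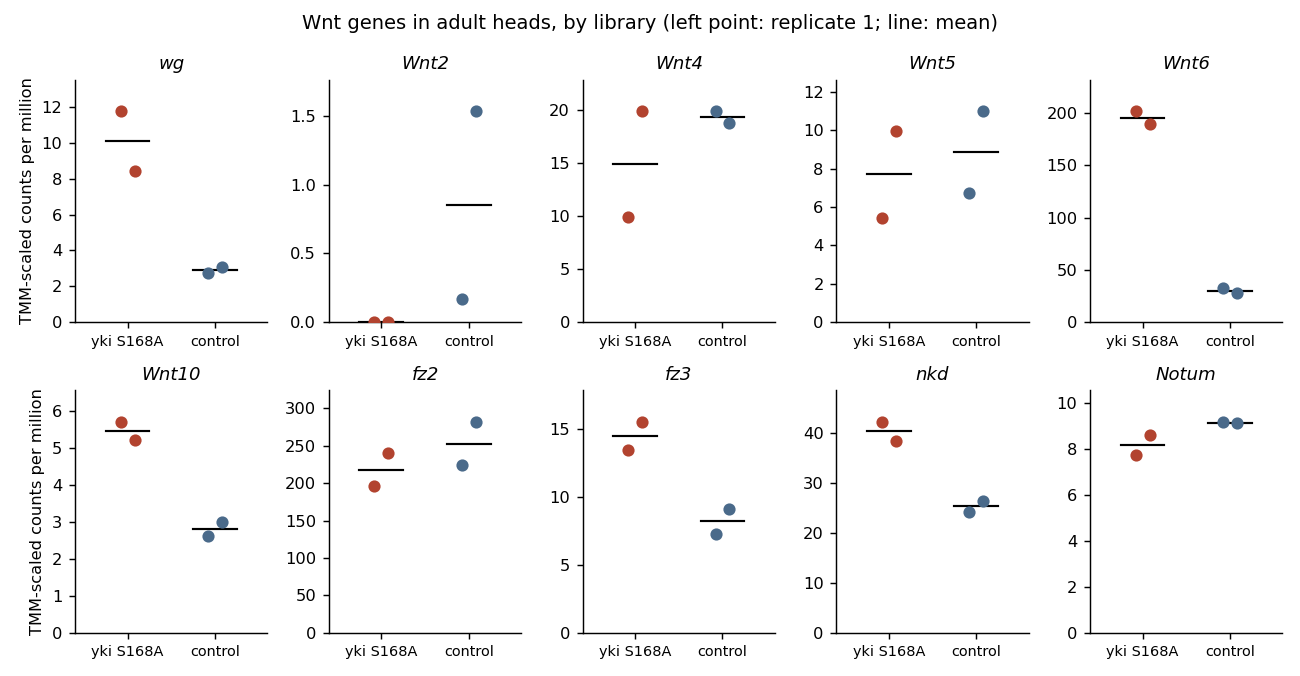
Level of each of the 10 Wnt genes in each library, in TMM-scaled CPM on linear axes from 0. In each panel yki S168A libraries are at the left and control libraries at the right, the left point of a pair is replicate 1, and the line is the mean of the group. The groups do not overlap for wg, Wnt2, Wnt6, Wnt10, fz3, nkd and Notum, and they overlap for Wnt4, Wnt5 and fz2.

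Wnt6 (FBgn0031902, chromosome 2L, 7333714 to 7352542, plus strand, build dm6), a ligand gene, was at 201.5 and 189.6 CPM in yki S168A heads, from 3321 and 3343 counts, against 32.9 and 27.4 CPM in control heads, from 576 and 446 counts. Both yki S168A libraries were far above both control libraries, and the gap between groups was many times the gap within either. The means were 195.6 ± 8.42 CPM in yki S168A heads and 30.1 ± 3.90 CPM in control heads (SD, n = 2 each). The log2 fold change was 2.70 ± 0.16 (SE, 95% interval 2.35 to 3.05, edgeR adjusted p = 5.17e-07). By p-value Wnt6 ranked 55 among the 10896 genes tested. It was called under each of the 14 alternative settings, with log2 fold changes of 2.54 to 2.83.

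The wg gene (FBgn0284084, chromosome 2L, 7307159 to 7316265, plus strand) encodes Wingless, the best studied fly Wnt. It had 194 and 149 counts in yki S168A heads, 11.8 and 8.45 CPM, against 48 and 50 counts in control heads, 2.74 and 3.07 CPM. The control libraries lay close together, the yki S168A libraries further apart, and the groups did not overlap. The means were 10.1 ± 2.35 CPM in yki S168A heads and 2.90 ± 0.23 CPM in control heads (SD, n = 2 each). The log2 difference was 1.80 ± 0.37 (SE, 95% interval 0.98 to 2.61, edgeR adjusted p = 0.00425). It was called under each of the 14 alternatives, with log2 fold changes of 1.54 to 2.02.

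Wnt10 (FBgn0031903, chromosome 2L, 7363379 to 7377528, plus strand), a ligand gene, was at 5.70 and 5.22 CPM in yki S168A heads, against 2.63 and 3.01 CPM in control heads. The groups did not overlap, but at 94 and 92 counts against 46 and 49 the difference missed the threshold (log2 fold change 0.96 ± 0.40, SE, 95% interval 0.07 to 1.84, edgeR adjusted p = 0.105). It was called under 0 of the 14 alternatives, with adjusted p-values of 0.108 to 0.383, although its unadjusted p was 0.037.

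Wnt4 (FBgn0010453, chromosome 2L, 7255419 to 7277171, minus strand), known for roles in cell movement and axon targeting as well as signaling, was at 9.95 and 19.9 CPM in yki S168A heads, against 19.9 and 18.8 CPM in control heads. The first yki S168A library was low and the second lay at the control level, so the groups overlapped (log2 fold change −0.37 ± 0.30, SE, 95% interval −1.02 to 0.28, edgeR adjusted p = 0.398). The value depended on those libraries: it was −0.96 without yki S168A replicate 2, where it was called (adjusted p = 0.021), and 0.04 without yki S168A replicate 1 (adjusted p = 0.93).

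Wnt5 (FBgn0010194, chromosome X, 18501401 to 18505405, minus strand), a ligand gene of axon guidance that acts through the Derailed family of receptors, was at 5.40 and 9.98 CPM in yki S168A heads, against 6.74 and 11.0 CPM in control heads. The groups overlapped widely (log2 fold change −0.19 ± 0.38, SE, 95% interval −1.01 to 0.63, edgeR adjusted p = 0.761). In yki S168A heads, replicate 1 was the lower library for Wnt4, Wnt5 and fz2 alike. The summed level of the 10 neuron markers was also lower in yki S168A replicate 1 (2968 CPM) than in replicate 2 (3851 CPM), against 4785 and 5119 CPM in control replicates 1 and 2. Other marker sums also differed between these libraries: that of the muscle markers was 6031 CPM in yki S168A replicate 1 and 9699 CPM in replicate 2, against 8405 and 7420 CPM in control replicates 1 and 2. The sum of the fat body markers went the other way, at 24622 CPM in yki S168A replicate 1 and 15195 CPM in replicate 2, against 61265 and 71391 CPM in control replicates 1 and 2. The part of these differences in the Wnt4, Wnt5 and fz2 values was not tested.

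Wnt2 (FBgn0004360, chromosome 2R, 9494166 to 9503188, plus strand), known for its role in the testis sheath and in tracheal development, had 0 counts in both yki S168A libraries, against 3 and 25 counts in the control libraries. A single control library held nearly all of its reads. Against a floor of 3 counts per library it was at least 4.84-fold lower in yki S168A heads, and at least 8.71-fold lower against control replicate 2 alone. Without control replicate 2 no fold is given, since the remaining control library is at the floor. Tested without the filter it was not called by edgeR (adjusted p = 0.0952), and DESeq2 called it (adjusted p = 0.0363). Floors cover counting error only.

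**Figure D2:**
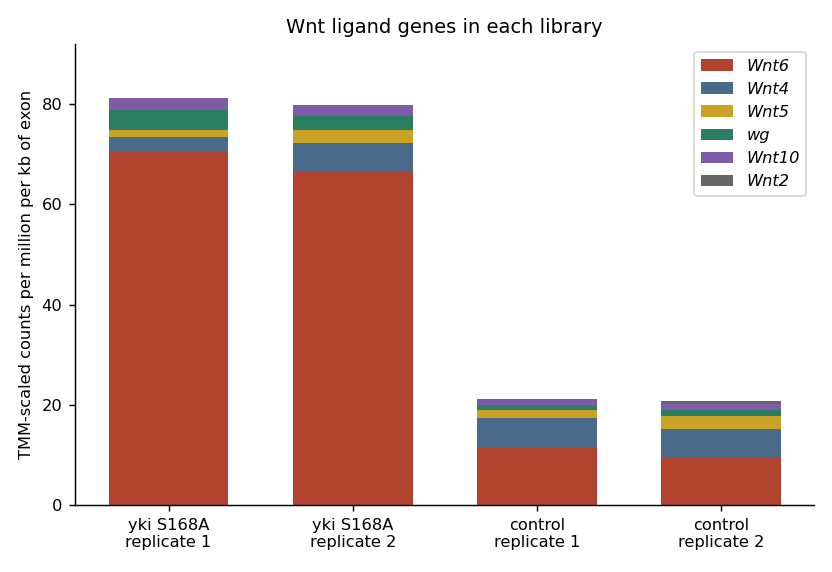
Summed level of the ligand genes in each library, in TMM-scaled CPM per kb of annotated exon, stacked by gene, with yki S168A libraries at the left. The Wnt6 segment is 70.6 and 66.4 in yki S168A libraries and 11.5 and 9.58 in control libraries, while the other ligands together reach 10.7 and 13.5 in yki S168A libraries and 9.70 and 11.3 in control libraries.

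Levels per kilobase of annotated exon allow a rough comparison of genes. Exons were merged over all annotated transcripts, so a gene with many, such as fz2 with 8, may be understated beside wg with 1. On this scale the 6 ligand genes together were at 81.3 and 79.9 CPM per kb in yki S168A heads, against 21.2 and 20.9 in control heads. Wnt6 made up 86.8% and 83.1% of this ligand sum in yki S168A heads, against 54.3% and 45.9% in control heads. The ligands other than Wnt6 summed to 10.7 and 13.5 CPM per kb in yki S168A heads, against 9.70 and 11.3 in control heads, and these ranges overlapped. Wnt4 held 3.63% and 7.38% of the ligand sum in yki S168A heads, against 27.8% and 26.7% in control heads, shares that move with the Wnt6 level in the sum. Its own level overlapped between groups, at 2.96 and 5.90 CPM per kb in yki S168A heads, against 5.90 and 5.58 in control heads (exact permutation p = 0.667, two-sided). With 2 libraries a group, an exact permutation test over samples cannot go below p = 0.333, two-sided, which is the value for the ligand sum (p = 0.667 for the ligands other than Wnt6).

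The level order of the 10 genes differed between the groups, in its top place and below it. Wnt4 and nkd also changed order, with their libraries separate in both groups. In yki S168A heads Wnt6 came first (68.5 ± 2.95 CPM per kb, SD, n = 2), followed by fz2 (29.4 ± 4.17) and nkd (7.98 ± 0.52). Then came Wnt4 (4.43 ± 2.08), fz3 (3.89 ± 0.39), wg (3.46 ± 0.80), Wnt10 (2.30 ± 0.14), Notum (2.16 ± 0.16), Wnt5 (1.92 ± 0.81) and Wnt2 (0). Neighbors in that order whose libraries overlapped were Wnt4 and fz3, fz3 and wg, Wnt10 and Notum, and Notum and Wnt5. In control heads fz2 came first (34.0 ± 5.50), followed by Wnt6 (10.6 ± 1.37), Wnt4 (5.74 ± 0.23) and nkd (5.01 ± 0.31). Notum (2.42 ± 0.01), Wnt5 (2.21 ± 0.75), fz3 (2.21 ± 0.35), Wnt10 (1.19 ± 0.11), wg (0.99 ± 0.08) and Wnt2 (0.38 ± 0.43) completed it. There the libraries overlapped between Notum and Wnt5 and between Wnt5 and fz3.

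**Figure D3:**
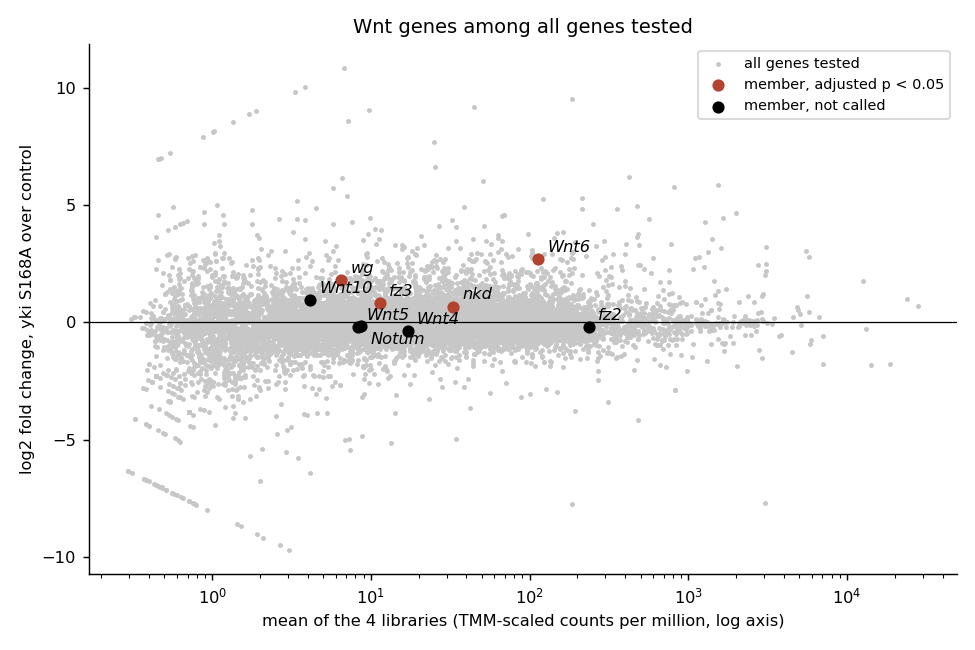
Mean level of the 4 libraries (TMM-scaled CPM, log axis) against log2 fold change, yki S168A over control, for all 10896 genes tested (gray) and the 9 tested Wnt genes (red where called, black where not). Wnt6 lies highest of the 9 at 2.70, followed by wg at 1.80, and fz2, the most abundant of them, lies at −0.21.

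Among the receptors, fz3 (FBgn0027343, chromosome X, 769945 to 784222, plus strand), a Frizzled family member of weak signaling activity that Wingless signaling induces in discs, was at 13.5 and 15.5 CPM in yki S168A heads, against 7.31 and 9.14 CPM in control heads. Both yki S168A libraries were above both control libraries. The log2 fold change was 0.82 ± 0.27 (SE, 95% interval 0.23 to 1.42, edgeR adjusted p = 0.0429), close to the threshold. The call was lost without control replicate 1 (adjusted p = 0.276), without control replicate 2 (0.0993) and without yki S168A replicate 2 (0.113), as well as with upper-quartile factors (0.0892), library totals alone (0.0743) and DESeq2 (0.104). The value stayed between 0.66 and 0.99 under all 14 alternatives.

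The receptor gene fz2 (FBgn0016797, chromosome 3L, 19140975 to 19235373, minus strand) encodes a high-affinity Wingless receptor and is repressed by Wingless signaling in the wing disc. It was at 196.1 and 239.8 CPM in yki S168A heads, against 223.7 and 281.5 CPM in control heads. The groups overlapped (log2 fold change −0.21 ± 0.16, SE, 95% interval −0.57 to 0.15, edgeR adjusted p = 0.379), and with 3232 to 4588 counts per library the interval excludes a fall or rise of 2-fold. Within a library, the count ratio of fz3 to fz2, which does not depend on library scaling, was 0.0687 and 0.0648 in yki S168A heads, against 0.0327 and 0.0325 in control heads. This ratio was 2.05-fold higher in yki S168A heads without overlap (exact permutation p = 0.333, two-sided, the smallest that 2 against 2 libraries allow; 5 such ratios were computed, so the adjusted value is also 0.333).

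The feedback gene nkd (FBgn0002945, chromosome 3L, 19003741 to 19045449, minus strand) was at 42.2 and 38.5 CPM in yki S168A heads, against 24.3 and 26.5 CPM in control heads. The groups were separate, and the libraries within each were close. The means were 40.4 ± 2.63 CPM in yki S168A heads and 25.4 ± 1.59 CPM in control heads (SD, n = 2 each). The log2 difference was 0.67 ± 0.18 (SE, 95% interval 0.28 to 1.05, edgeR adjusted p = 0.0153). The call was lost without control replicate 1 (adjusted p = 0.15) and without control replicate 2 (0.0777), with log2 fold changes of 0.60 and 0.73.

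Notum (FBgn0044028, chromosome 3L, 16023480 to 16032752, plus strand), the secreted Wnt deacylase gene, was at 7.77 and 8.62 CPM in yki S168A heads, against 9.19 and 9.14 CPM in control heads. Both yki S168A libraries were slightly lower, but the difference did not pass (log2 fold change −0.16 ± 0.29, SE, 95% interval −0.80 to 0.47, edgeR adjusted p = 0.734). The count ratio of nkd to Notum was 5.44 and 4.47 in yki S168A heads, against 2.64 and 2.90 in control heads, 1.78-fold higher in yki S168A heads without overlap (exact permutation p = 0.333, two-sided, adjusted 0.333).

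The genes wg, Wnt4, Wnt6 and Wnt10 lie together within 122 kb of chromosome 2L, where Wnt4 is read from the strand opposite to the others. The estimated fold changes within this cluster differed, although the 95% intervals of Wnt6 (log2 2.35 to 3.05) and wg (0.98 to 2.61) overlapped. The count ratio of Wnt6 to wg was 17.1 and 22.4 in yki S168A heads, against 12.0 and 8.92 in control heads, and that of Wnt6 to Wnt10 was 35.3 and 36.3 in yki S168A heads, against 12.5 and 9.10 in control heads. The ratio of Wnt6 to Wnt4 was 20.3 and 9.55 in yki S168A heads, against 1.66 and 1.46 in control heads. Each of these ratios was higher in yki S168A heads without overlap, 1.89-fold for wg, 3.36-fold for Wnt10 and 8.95-fold for Wnt4 (exact permutation p = 0.333 each, two-sided, adjusted 0.333).

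**Figure D4:**
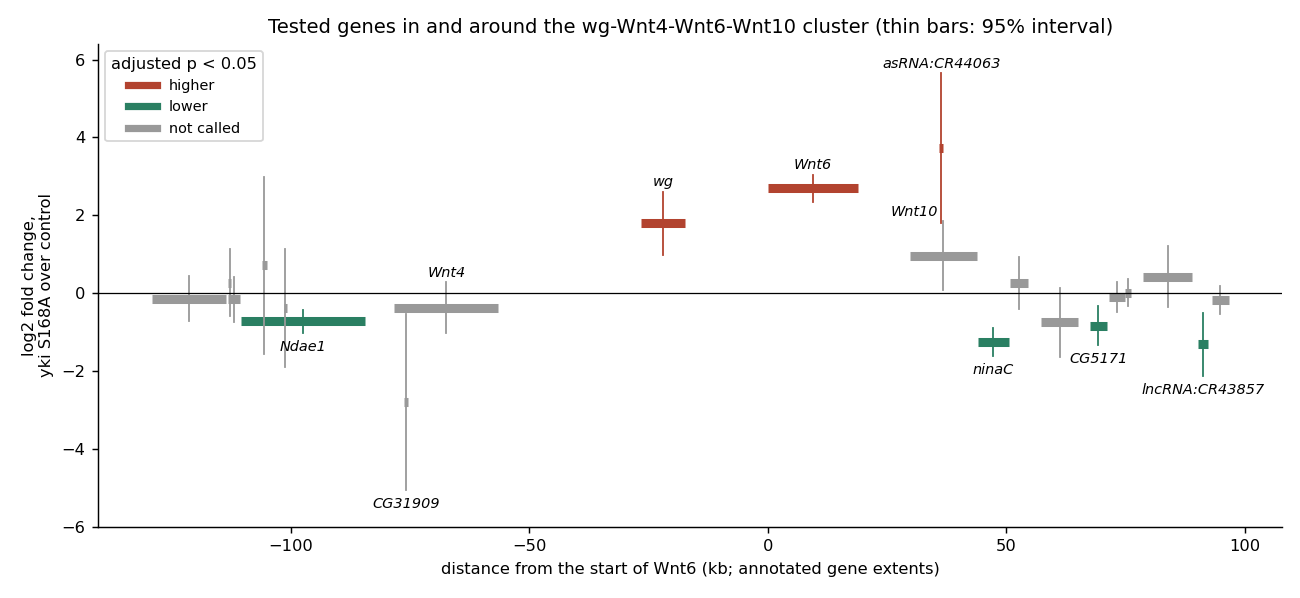
Log2 fold change, yki S168A over control, of the tested genes in and around the Wnt cluster, plotted against distance from the start of Wnt6 in kilobases. Thick bars span the annotated gene and thin bars the 95% interval. Wnt6 (2.70) and wg (1.80) are higher, Wnt10 (0.96) and Wnt4 (−0.37) are not called, and ninaC (−1.25), next to Wnt10, is lower.

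Of 17 other genes tested within the cluster or 50 kb of its ends, 1 was called higher, 4 lower and 12 not at all. The 5 called genes are 29.4% of the 17, near the background of 27.6% of all genes tested. The higher one was CR44063 (asRNA:CR44063, 7369646 to 7370503), a noncoding RNA gene antisense to Wnt10, with 36 and 34 counts in yki S168A heads, against 4 and 1 in control heads. Its log2 fold change of 3.73 (95% interval 1.81 to 5.65, edgeR adjusted p = 0.00772) rests on few control counts, and the call was lost without control replicate 1 (adjusted p = 0.0764) and without control replicate 2 (0.128). Of its exonic bases 18.6% lie opposite Wnt10 exons, and 3.3% of those of Wnt10 lie opposite it, so that without a stated strand setting the reads of this overlap cannot be assigned. Nested in Wnt4, CG31909 was not called (log2 fold change −2.80, adjusted p = 0.0639), except with upper-quartile factors (adjusted p = 0.0478). The lower genes were ninaC, which encodes the photoreceptor myosin and begins just past the end of Wnt10, at 136.1 and 181.2 CPM in yki S168A heads, against 378.1 and 378.0 CPM in control heads (log2 fold change −1.25, adjusted p = 0.000193), and Ndae1 (−0.73, 0.00247), CG5171 (−0.84, 0.0194) and CR43857 (lncRNA:CR43857; −1.31, 0.0215). The last 3 calls were each lost without at least 1 library: Ndae1 without control replicate 2 (adjusted p = 0.0514), CG5171 without control replicate 2 (0.165) or yki S168A replicate 1 (0.0768), and CR43857 without control replicate 1 (0.226) or yki S168A replicate 2 (0.084). Without control replicate 1 the log2 fold change of CR44063 was 4.90, and without control replicate 2 it was 3.13.

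Of 57 other genes of the pathway, listed by role, 52 were tested, 5 were called higher and 5 lower. That is 19.2% of those tested, against the background of 27.6%, and their median log2 fold change was −0.14 against 0.01 over all genes tested. The counts were 4 without control replicate 1 and 4 without control replicate 2 (2 higher and 2 lower in each). With upper-quartile factors they were 3 higher and 10 lower.

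Outside the receiving cell, 1 of 3 genes of ligand maturation and release was higher and 0 lower (33.3% called, against 27.6% of all genes tested). Swim, named for its secreted product's interaction with Wingless, was at 146.1 and 198.6 CPM in yki S168A heads, against 71.8 and 58.8 CPM in control heads, without overlap (log2 fold change 1.40 ± 0.18, SE, edgeR adjusted p = 0.000176). Of its exonic bases 11.6% lie opposite other genes. The acyltransferase gene por, which the lipid modification of Wnt proteins needs, was not called (log2 fold change 0.28, adjusted p = 0.322). Of 7 glypican genes and modifiers of their sugar chains, 1 was higher and 1 lower, and this 28.6% is near the share of all genes. The glypican gene dlp, whose product carries Wingless at the cell surface, was at 110.2 and 110.5 CPM in yki S168A heads, against 51.5 and 66.1 CPM in control heads (log2 fold change 0.91, adjusted p = 0.00162). Sulf1, which trims sulfate from heparan sulfate, was at 10.4 and 14.5 CPM in yki S168A heads, against 21.3 and 21.9 CPM in control heads. Its log2 fold change was −0.79 (edgeR adjusted p = 0.0289), a call that held under 11 of the 14 alternatives. The heparan sulfate polymerase gene sotv, listed as Ext2, was not called (log2 fold change −0.51, adjusted p = 0.0907), except with upper-quartile factors (adjusted p = 0.0299) and library totals alone (0.0436).

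Of 10 other receptor genes tested by edgeR, 0 were called, against 27.6% of all genes tested. DESeq2 and limma-voom called 0 as well. At an unadjusted p below 0.05, 0 were higher and 1 lower. The smallest p was that of drl, which encodes the Wnt5 receptor Derailed (log2 fold change −0.51, adjusted p = 0.122). It was called lower with upper-quartile factors (−0.67, adjusted p = 0.0439) and under none of the other 13 alternatives. The further ligand gene wntD was not tested, with a level of 0 and 0.34 CPM in yki S168A heads, against 0 in both control libraries.

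Of 12 cytoplasmic genes, 1 was higher and 3 lower (33.3% called, against 27.6% of all genes tested). The gene arm, encoding Armadillo, was at 247.6 and 281.8 CPM in yki S168A heads, against 182.4 and 172.9 CPM in control heads (log2 fold change 0.58, edgeR adjusted p = 0.0112). The kinase gene sgg, the fly GSK3 and a member of the destruction complex, was at 163.8 and 180.9 CPM in yki S168A heads, against 285.9 and 286.3 CPM in control heads (log2 fold change −0.73, adjusted p = 0.00248), with 11.8% of its exonic bases shared with a noncoding gene on the same strand. The kinase gene nmo, which limits Wingless signaling in the wing, was at 56.9 and 71.7 CPM in yki S168A heads, against 108.3 and 114.4 CPM in control heads (log2 fold change −0.79, adjusted p = 0.00346). The transducer gene dsh was at 40.4 and 47.7 CPM in yki S168A heads, against 58.4 and 67.3 CPM in control heads. Its log2 fold change was −0.51 (edgeR adjusted p = 0.0398), a call that held under 9 of the 14 alternatives. The scaffold gene Apc was not called (log2 fold change −0.50, adjusted p = 0.179). Libraries of the groups did not overlap for arm, sgg, nmo or dsh. This also held for Apc and in all for 9 of the 12 genes, against 63.3% of all genes tested. It therefore does not set the called genes apart.

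Of 9 nuclear genes tested by edgeR, 0 were called, against 27.6% of all genes tested. DESeq2 and limma-voom called 0 as well. At an unadjusted p below 0.05, 0 were higher and 1 lower. That 1 was pan, encoding Pangolin, at 114.3 and 123.0 CPM in yki S168A heads, against 163.7 and 145.9 CPM in control heads (log2 fold change −0.38, adjusted p = 0.066, and 0.0291 with the replicate number as a block). It was called lower under 4 of the 14 alternatives. Of 11 other genes described as Wingless targets in imaginal discs, 7 were tested. Of these, 14.3% were called, against 27.6% of all genes tested: 1 was higher and 0 lower. That was Dll, a homeobox gene of the antenna and other appendages, at 18.9 and 31.0 CPM in yki S168A heads, against 12.2 and 16.1 CPM in control heads (log2 fold change 0.82, adjusted p = 0.0429), a call that held under 5 of the 14 alternatives. H15, a T-box gene, was not called (log2 fold change −1.53, adjusted p = 0.143), and its value depended on single libraries. It was −3.36 and called without yki S168A replicate 2 (adjusted p = 0.0479), −0.79 without yki S168A replicate 1 (0.472), −1.91 without control replicate 1 (0.15) and −1.06 without control replicate 2 (0.539). The proneural genes ac, sc and sens and the gene dpn were too low to be tested, at 0 to 0.397 CPM in each library.

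Of 4 core genes of planar cell polarity, the Frizzled branch that orients cells within a sheet, 1 was higher and 1 lower. This is 50% of only 4 genes, against 27.6% of all genes tested. The gene pk was at 11.0 and 13.9 CPM in yki S168A heads, against 6.74 and 6.63 CPM in control heads. Its log2 fold change was 0.90 (edgeR adjusted p = 0.0398), a call that held under 8 of the 14 alternatives. The seven-pass cadherin gene stan was at 12.3 and 13.5 CPM in yki S168A heads, against 23.1 and 22.0 CPM in control heads (log2 fold change −0.81, adjusted p = 0.0169), and Vang was not called (log2 fold change 0.50, adjusted p = 0.0681). Of the 10 called pathway genes, Swim, dlp, sgg and nmo were called under all 14 alternatives. The other 6, Sulf1, arm, dsh, Dll, pk and stan, each lost the call without either control library (adjusted p-values 0.0534 to 0.299).

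**Figure D5:**
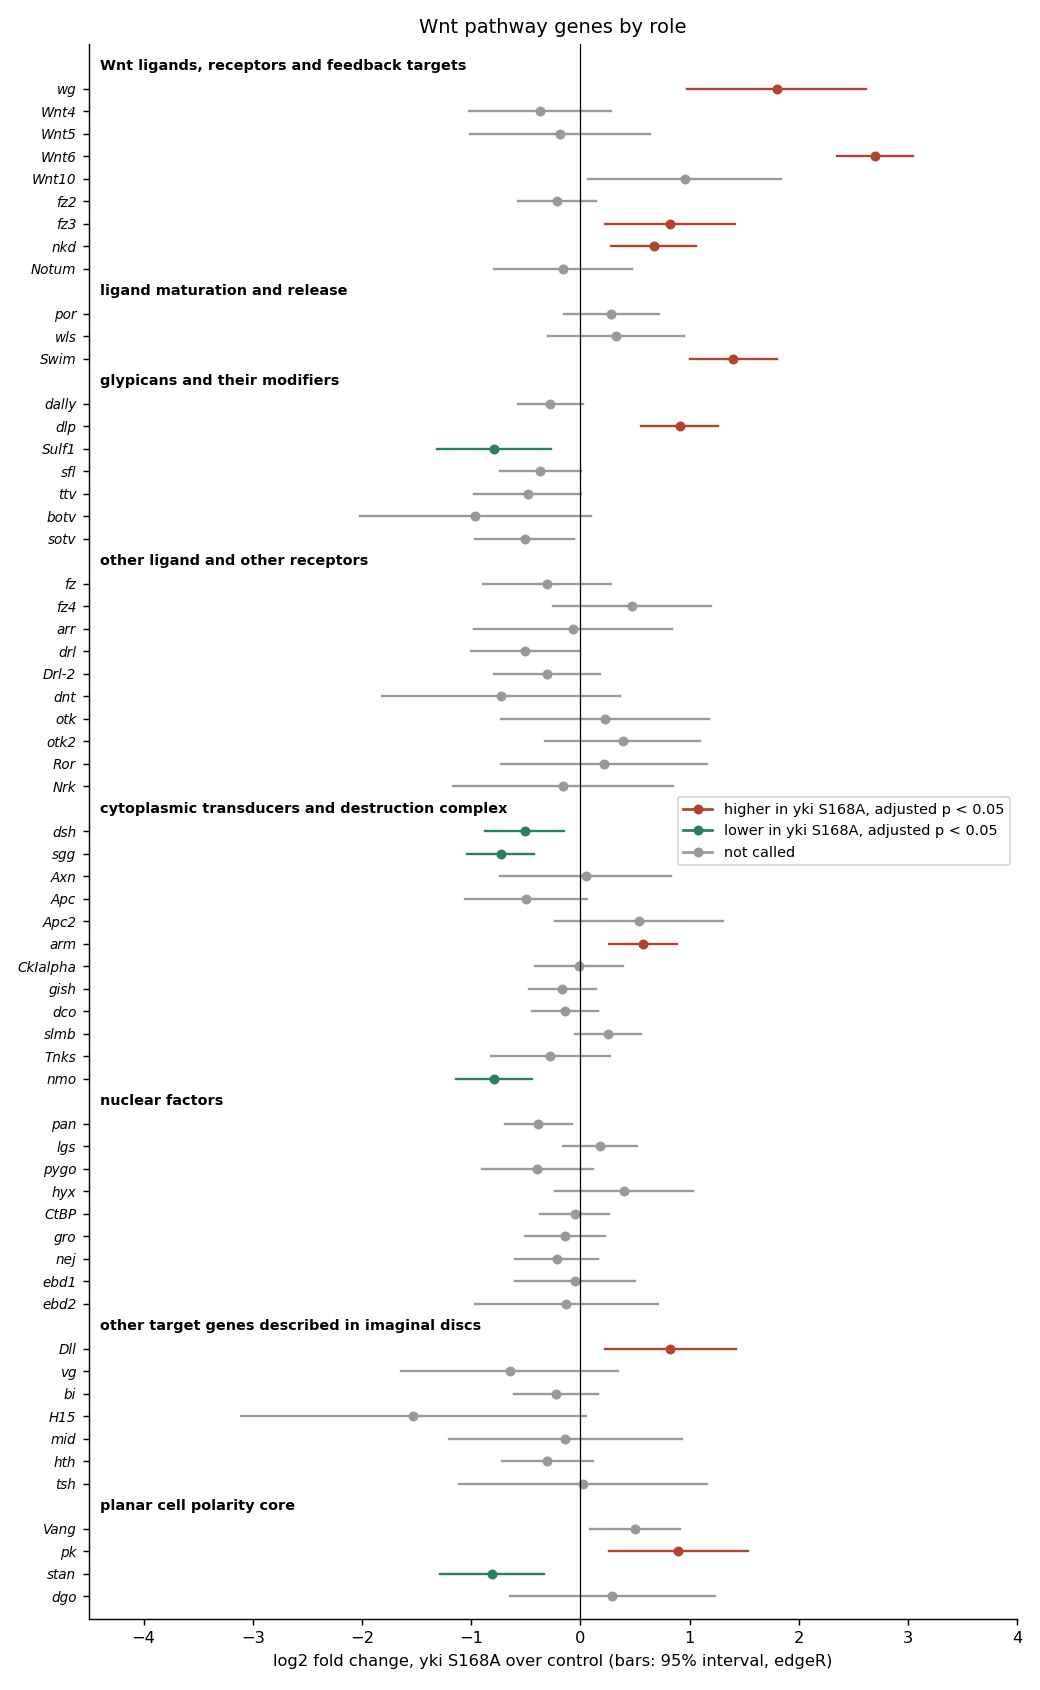
Log2 fold change, yki S168A over control, of the 9 tested Wnt genes and of 52 further pathway genes by role, with 95% intervals from edgeR. Genes called higher are red, genes called lower green and the others gray. Wnt6 and wg lie furthest to the right among the called genes, and none of the genes listed under other receptors or nuclear factors is called.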

How the data were processed

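RNA of 30 adult heads per library was made into libraries with the Lexogen SENSE mRNA kit, per the labels' protocols. For each library the authors deposited a table of unnormalized counts by gene symbol. Per the submitters' processing notes, reads were placed on dm6. Aligner, counting tool, annotation and strand setting: not given in the sources used here. Of 16509 lines, those that shared a symbol were summed, leaving 16489 symbols, of which 98.7% matched the Ensembl release 115 annotation in dm6 coordinates by current or older symbol. Levels per kb divide by merged annotated exons.

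The fit used edgeR 4.0.16 under R 4.3.3, with filterByExpr (minimum count 10), which left 10896 genes, TMM scaling, estimateDisp, glmQLFit with the current method in place of the legacy one and glmQLFTest, group being the only term. Standard errors were derived from each log2 fold change and its F statistic, and p-values were adjusted over all genes tested. The same code was also run on simulated counts with known changes. That simulation gave all genes the same dispersion, unlike these data, so it does not measure the error rate here. Alternatives were RLE, upper-quartile and no scaling factors, the 20 most abundant genes left out, no filter, a mean of at least 2 CPM, DESeq2 1.42.0, limma-voom (limma 3.58.1), a replicate block and each library left out; the legacy quasi-likelihood method was added after seeing the data.

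The members and lists were chosen with earlier results of these data known. Named were the 10 members, yki, called pathway genes and the lowest-p uncalled one of each role, the most abundant marker per cell type, called genes near the 2L cluster or any inside it (others as counts), and the 5 genes most like the top member. Of 10 midgut markers, listed against stray tissue, 3 were tested and 1 was lower, pros, which neurons also express (log2 fold change −0.48, edgeR adjusted p = 0.0267).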

Additional observations from a re-analysis of the deposited data

How the results depend on the processing

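Of 46 genes tested under up to 14 alternatives each, 14 were called under every alternative, 10 under 0 and 22 under some. Many of the 46 were chosen by their result in the main fit, and 5 for their likeness to Wnt6. The tally therefore does not measure how well calls hold in general. The 14 were Wnt6, wg, Swim, dlp, sgg, nmo, ninaC, Arr2, retinin and the 5 genes most like Wnt6, and the 10 were Wnt5, Wnt10, fz2, Notum, por, Apc, Vang, Syx1A, Mlc2 and crq. With a library left out in turn, the number of genes called ran from 1634 to 3123, against 3006 with all libraries, that of Wnt genes called from 2 to 4, and that of other pathway genes called from 4 to 13. With a library left out, log2 fold changes ran from −0.960 to 0.036 for Wnt4, from −0.709 to 0.195 for Wnt5 and from −0.072 to 0.500 for the muscle gene Mlc2. The lowest counts came without a control library, which leaves a lone control assumed to vary like the other group. Log2 fold changes changed sign for Wnt4 without yki S168A replicate 1 (0.036), for Wnt5 without control replicate 2 (0.195) and without yki S168A replicate 1 (0.177), and for Mlc2 without control replicate 2 (−0.020) and without yki S168A replicate 2 (−0.072), all uncalled with all libraries; the cause was not tested. The labels do not say whether replicate numbers pair the libraries. Deviations of same-numbered libraries correlated at r = 0.0212 across genes, which are not independent replicates, so this value cannot decide it. With the replicate block, 3626 genes, 4 of the Wnt genes and 11 of the other pathway genes were called. H15, CG31909 and CR44063 have no value with a mean of at least 2 CPM, nor Yp2 without the 20 most abundant genes. Wnt2 had too few counts for the filter.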

Other observations

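The genes whose pattern over the 4 libraries was most like that of Wnt6 were CG31469, CG31704, CG32581, b6 and Sp212. They had the smallest Euclidean distance (0.0625 to 0.131) between log2 CPM values centered on each gene's mean, among 8164 genes with a mean of at least 5 CPM. With 4 libraries in 2 groups, such a likeness reflects little beyond the fold change. CG31469, the closest, was at 30.8 and 28.3 CPM in yki S168A heads, against 4.74 and 4.11 CPM in control heads. Sp212, a serine protease gene by its name, was at 80.6 and 72.9 CPM in yki S168A heads, against 12.8 and 11.8 CPM in control heads. Log2 fold changes of the 5 genes ran from 2.60 to 2.74.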
